A study of Mus musculus with 4 samples.

Results

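The genes described here are 46 complement and coagulation factors with their main regulators and receptors, taken by gene symbol from a table of 22155 symbols, 20 of clotting and fibrinolysis and 26 of complement. All 46 passed the filter on low counts, as did 13309 genes in all. Messenger RNA was sequenced from whole liver of wild-type C57BL/6 mice, 8 to 10 weeks old, kept on the Lieber-DeCarli liquid diet with 5% ethanol for 10 days. In 2 libraries (ethanol alone) the mice had the diet only, and in the other 2 (gavage) they also had 1 ethanol binge of 5 g per kg body weight and were killed 9 h later. Both groups are thus ethanol-fed, no group without ethanol was analysed here, and the labels name neither a control gavage nor the hour at which the diet-only mice were killed. They also do not say that libraries came from separate animals, so every p-value measures the spread between these 4 libraries, which may be technical. Values are CPM, counts per 1000000 counts after TMM scaling, and libraries are listed as ethanol alone replicates 1 and 2, then gavage replicates 1 and 2.

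Clotting and complement are the main cascades of plasma proteases, and the liver makes most of their proteins. In clotting, a chain of serine proteases ends in thrombin, which turns fibrinogen into fibrin, and plasmin later dissolves the clot. Complement starts from antibody (the classical pathway), from sugars on microbes (the lectin pathway) or by itself on surfaces (the alternative pathway). All 3 routes cleave C3 and end in a pore of terminal components. Fibrinogen is a known acute-phase protein of the liver. C1q comes largely from macrophages, which also make properdin, and von Willebrand factor comes from endothelium.

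The libraries held 28791281 to 30347558 counts and showed liver as labelled, with albumin (Alb) at 83277 to 110898 CPM. Ethanol alone replicate 1 stood apart. All 9 listed genes of male-type liver were highest there and summed to 6913 CPM against 82.6 to 540.4 CPM elsewhere, while 7 of 10 female-type genes were lowest there. Counts of 4 Y-linked genes summed to at most 0.0366 CPM in any library. That library was also the highest of the 4 for 29 of the 46 members (63.0%), against 31.6% of all tested genes. Both libraries numbered 1 held more RNA of skeletal muscle genes (454 and 941 CPM, against 13.2 and 1.4 CPM in those numbered 2). Short transcripts were lower after gavage across the whole table. The median log2 fold change was -0.36 for the eighth of tested genes with transcripts of up to 1608 bases and 0.28 for the eighth from 6333 bases, and ethanol alone replicate 1 differed from replicate 2 along the mirrored slope (log2 ratios of 0.33 and -0.31). The part of sex-type genes, muscle RNA and length in the members' values was not tested beyond the fits without that library and with the length trend removed.

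No member passed the test. With edgeR's quasi-likelihood test and Benjamini-Hochberg adjustment over 13309 genes, the share of genes called was 0% (0 genes), and the members came no lower than an adjusted p of 0.152. Under an unadjusted p of 0.05, 4 members stood higher after gavage (8.70%, where 8.91% of all tested genes did) and 12 stood lower (26.1%, where 9.85% did). DESeq2, another count model, called 4 members higher and 9 lower, where it called 3.93% and 4.94% of all tested genes. Counted by library, 7 members had both gavage libraries above both of ethanol alone (15.2%, where 27.5% of all tested genes did) and 24 had both below (52.2%, where 27.2% did). The median log2 fold change was -0.32 over the 46 members, -0.22 over those of clotting and fibrinolysis and -0.56 over those of complement, and 0.02 over all tested genes. Lower values were not limited to these cascades. The 9 hepatocyte markers tested, genes of other liver products, had a median of -0.74. Of them 7 were lower, 5 without overlap of the groups, and 3 under an unadjusted p of 0.05. They summed to 162316 and 139422 CPM against 119901 and 145185 CPM, so the sums of the groups overlapped. Their part in the members' values was not tested. The counts of 4 and 12 were 3 and 2 without gavage replicate 1, 3 and 5 without gavage replicate 2, 1 and 18 without ethanol alone replicate 2, and 6 and 10 without ethanol alone replicate 1. With transcript length and GC content removed as a trend, they were 5 and 9.

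**Figure D1:**
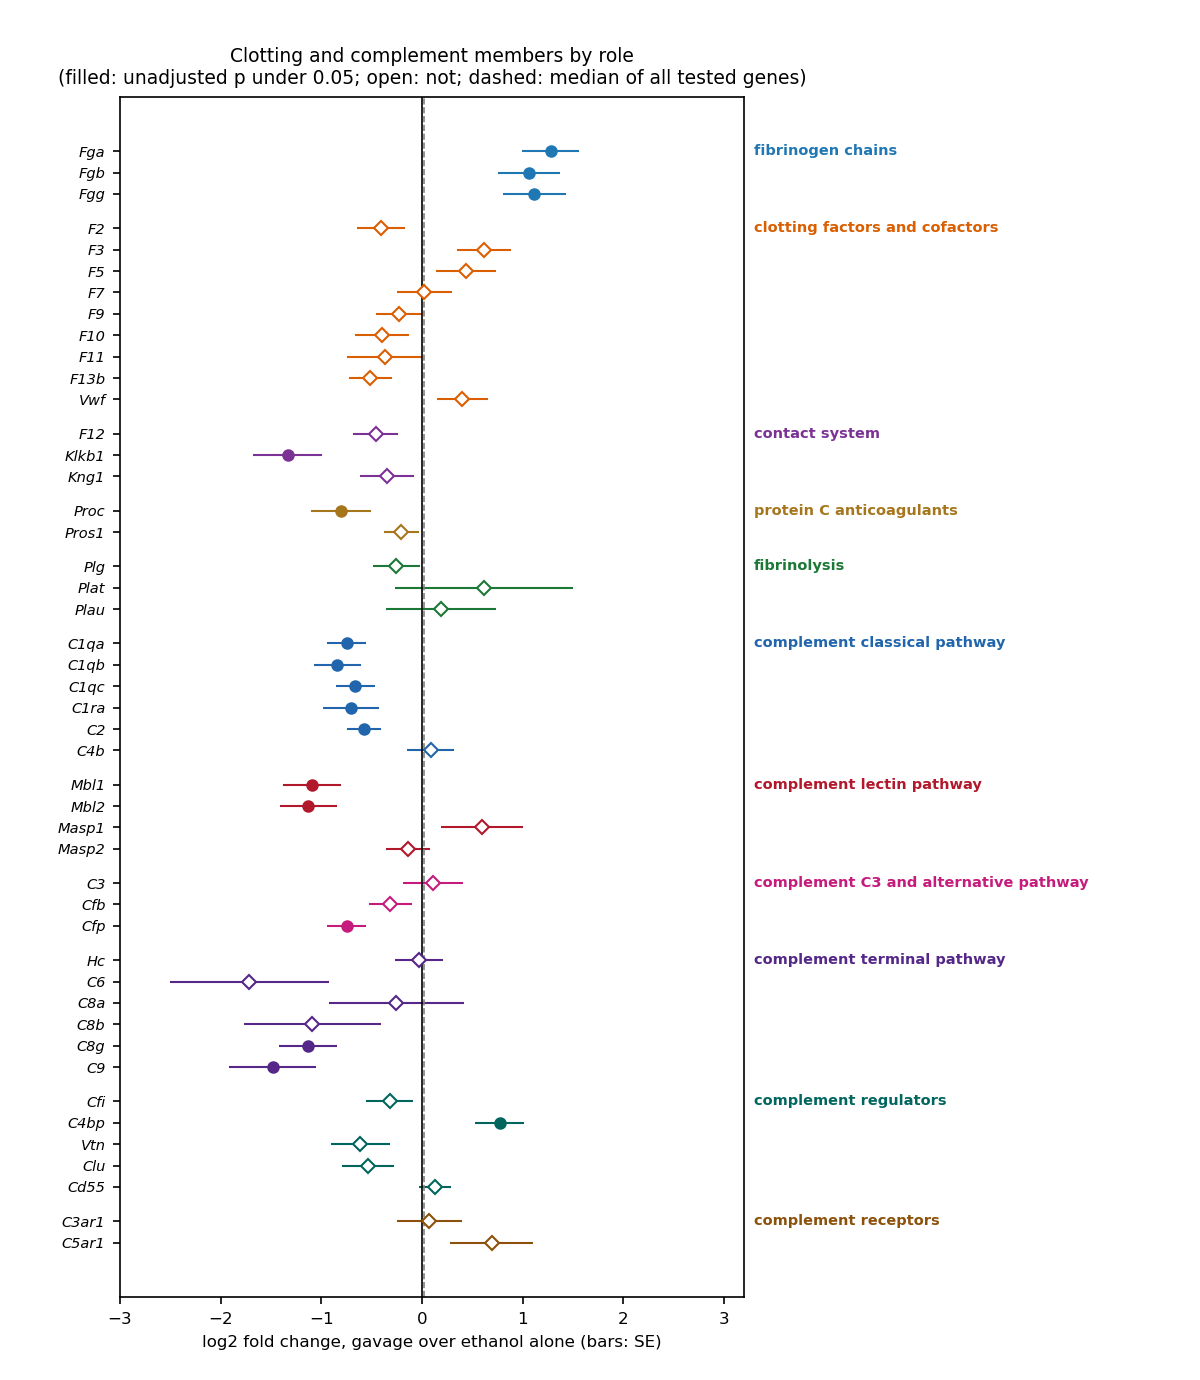
Log2 fold change of gavage over ethanol alone (x axis) with its SE (bars) for the 46 members (rows), grouped by role. The 3 fibrinogen chains stand at 1.07 to 1.28. C6 stands lowest at -1.71, and C9, Klkb1, C8g, Mbl2, Mbl1 and C8b stand between -1.48 and -1.09. The groups overlap for C6 and C8b. The dashed line marks the median of all tested genes at 0.02.

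The 3 chains of fibrinogen, the soluble precursor of the fibrin clot, stood higher after gavage, each by more than 2-fold in the ratio of group means. Their genes lie side by side on mouse chromosome 3 (GRCm38), Fgg from 83007724 to 83015049, Fga from 83026076 to 83033627 and Fgb, on the other strand, from 83040141 to 83049863. Fga, the alpha chain, stood at 6855 and 5055 CPM with ethanol alone and at 15356 and 13531 CPM after gavage. The lower gavage library thus held about 2 times the level of the higher diet-only library, and the log2 fold change was 1.28 (SE 0.28, edgeR adjusted p = 0.152). Fgb, the beta chain, stood at 5710 and 3990.3 CPM against 11397 and 8914 CPM (1.07, SE 0.31, edgeR adjusted p = 0.199). Fgg, the gamma chain, stood at 5130.2 and 3483 CPM against 10339 and 8323 CPM (1.12, SE 0.31, edgeR adjusted p = 0.192). In all 3 genes the groups did not overlap, and replicate 1 was the higher library within each group. DESeq2 called all 3.

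Together the 3 chains took 1.68% and 1.25% of all counts in the diet-only libraries and 3.89% and 3.08% in the gavage libraries. The other 43 members together took 3.24% and 3.04% against 2.69% and 3.2%. Per kilobase of the longest annotated transcript, Fga and Fgg stood close to each other in every library (2650 and 2947 CPM per kb in ethanol alone replicate 1, 5936 and 5938 in gavage replicate 1). Fgb was at 1499 and 2991 CPM per kb in the same libraries. The neighbouring gene Plrg1, a splicing factor, stood at 24.4, 27.4, 24.3 and 24.4 CPM, and Lrat, a retinol-esterifying enzyme nearby, at 22.9, 36, 29.1 and 52.2 CPM, with overlap of the groups for both. The fold change of the chains kept its direction in each of the 17 alternatives, at 1.02 to 1.51 for Fga, 0.78 to 1.34 for Fgb and 0.81 to 1.41 for Fgg.

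The bases before the start sites of these genes, and of the mannose-binding lectins Mbl1 and Mbl2 that stood lower, are shown because the genes within each set had like fold changes on the log2 scale (1.07 to 1.28 and -1.13 to -1.09). They are RefSeq promoter sequences of GRCm38.p6, read 5′ to 3′ on the gene's strand from 250 bases before the start to the base before it. Fga ends earlier because GENCODE places its start further upstream. Capitals mark matches on either strand to TTCNNNGAA, a STAT site, CTGGGAA, an interleukin-6 response element, TTNNGNAAT, a C/EBP site, or the HNF1 consensus. The windows are chr3:83007474-83007723 (Fgg, plus strand), chr3:83025903-83026075 (Fga, plus), chr3:83049864-83050113 (Fgb, minus), chr14:41151206-41151455 (Mbl1, plus) and chr19:30232678-30232927 (Mbl2, plus).
Fgg: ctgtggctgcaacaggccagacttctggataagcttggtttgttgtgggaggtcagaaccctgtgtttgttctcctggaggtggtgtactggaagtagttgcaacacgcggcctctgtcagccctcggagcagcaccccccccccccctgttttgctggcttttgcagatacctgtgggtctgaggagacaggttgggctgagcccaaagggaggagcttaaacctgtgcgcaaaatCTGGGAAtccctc
Fga: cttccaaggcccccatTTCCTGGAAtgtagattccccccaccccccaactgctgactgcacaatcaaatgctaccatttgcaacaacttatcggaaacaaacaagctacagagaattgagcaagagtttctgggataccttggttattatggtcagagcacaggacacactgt
Fgb: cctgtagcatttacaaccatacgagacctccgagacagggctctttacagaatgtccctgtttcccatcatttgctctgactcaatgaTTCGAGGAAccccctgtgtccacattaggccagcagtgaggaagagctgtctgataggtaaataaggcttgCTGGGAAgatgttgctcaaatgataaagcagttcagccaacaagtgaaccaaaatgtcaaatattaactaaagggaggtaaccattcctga
Mbl1: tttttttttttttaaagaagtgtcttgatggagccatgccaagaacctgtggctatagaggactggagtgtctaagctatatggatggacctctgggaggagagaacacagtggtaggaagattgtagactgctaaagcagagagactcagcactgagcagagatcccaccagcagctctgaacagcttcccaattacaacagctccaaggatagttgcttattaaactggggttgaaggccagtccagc
Mbl2: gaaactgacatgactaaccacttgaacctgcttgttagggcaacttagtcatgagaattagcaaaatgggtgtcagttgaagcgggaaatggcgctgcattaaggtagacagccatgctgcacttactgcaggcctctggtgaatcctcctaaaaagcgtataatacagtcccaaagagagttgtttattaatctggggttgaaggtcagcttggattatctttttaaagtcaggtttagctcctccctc

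A STAT match lay at -234 to -226 in Fga and at -162 to -154 in Fgb, and an interleukin-6 element match at -91 to -85 in Fgb and at -13 to -7 in Fgg. Of the 33 members with an entry in the promoter table, 6 held the STAT letters (Fga, Fgb, F9, Pros1, Masp2 and C8a) and 5 the interleukin-6 letters (Fgb, Fgg, F9, Masp2 and C1ra), where 7.02% and 9.10% of all 32851 promoters in the table did. In F9 and Masp2 both matches are the same site. The C/EBP letters were in 6 members (C1ra, C3, C6, C9, F13b and Klkb1), where 10.2% of promoters did. The HNF1 consensus was in 0 of the 33 and in 3 of all 32851 promoters. The fold changes of the 6 members with a STAT match ran from -0.25 to 1.28. A member was counted if any of its promoters matched, while the percentages are of single promoters, so these counts and percentages are unlike measures. A match is a run of letters, and binding was not measured.

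**Figure D2:**
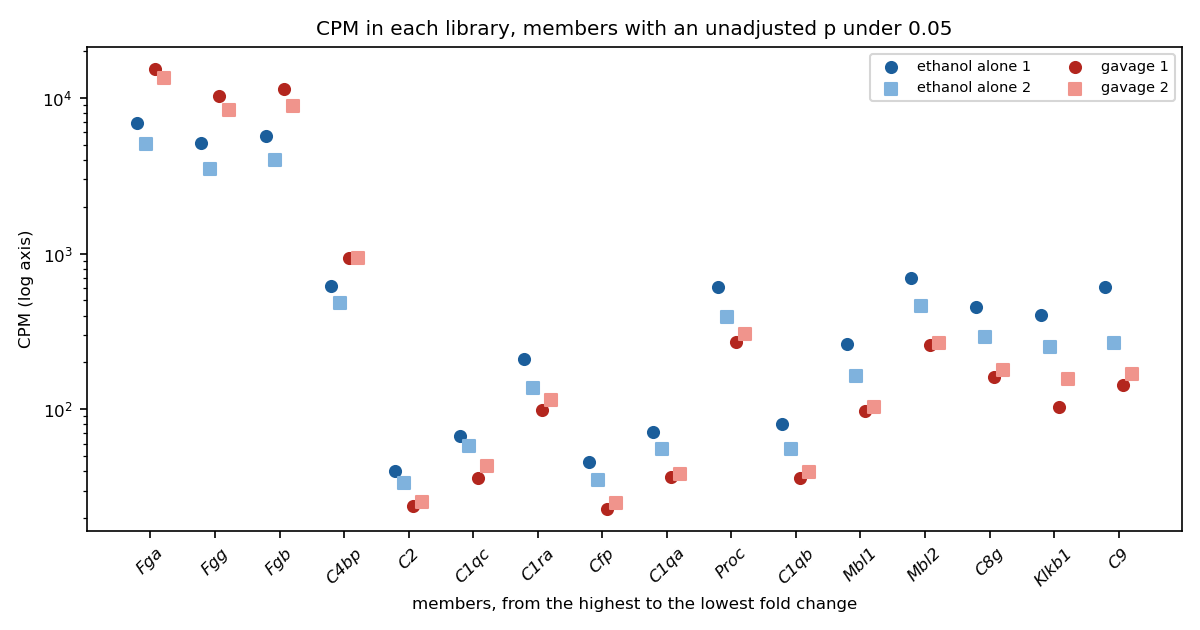
CPM on a log axis (y) in each of the 4 libraries (blue for ethanol alone, red for gavage; circles for replicate 1, squares for replicate 2) for the 16 members with an unadjusted p under 0.05. The groups do not overlap in any of the 16, which selection by that p favours. Ethanol alone replicate 1 is the highest library for all 12 members that are lower after gavage, and for 31.6% of all tested genes.

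Of the 9 clotting factors and cofactors none had an unadjusted p under 0.05, and their median log2 fold change of -0.23 became 0.12 without ethanol alone replicate 1. F2, prothrombin and the most abundant of them in CPM, stood at 2298 and 1912 CPM against 1526 and 1648 CPM (-0.41, SE 0.24, edgeR adjusted p = 0.408). Both gavage libraries also lay below both of ethanol alone for F9, F10 and F13b. F9 stood at 258 and 269 CPM against 197 and 253 CPM (-0.23, SE 0.23). F10 stood at 619 and 450.98 CPM against 450.02 and 363 CPM (-0.40, SE 0.27), so its nearest libraries were almost level. F13b, the carrier subunit of the fibrin-crosslinking factor XIII, stood at 253 and 244 CPM against 159 and 189.9 CPM (-0.51, SE 0.21, edgeR adjusted p = 0.278). F5, the cofactor of the enzyme that activates prothrombin, stood at 662 and 868 CPM against 853 and 1225 CPM, with overlap. F7, which starts clotting together with tissue factor, stood at 128 and 110.2 CPM against 148 and 95.1 CPM. F11 stood at 106, 50.7, 54.9 and 66.1 CPM, and its fold change of -0.37 became 0.23 without ethanol alone replicate 1. Tissue factor, F3, had few counts, at 3.37 and 2.58 CPM against 4.46 and 4.65 CPM, and Vwf, von Willebrand factor, stood at 12.4 and 8.39 CPM against 14.7 and 12.8 CPM. For both the gavage libraries were the higher ones.

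The 3 genes of the contact system, which starts clotting on charged surfaces and releases bradykinin, all had both gavage libraries below both of ethanol alone. Of all tested genes, 27.2% did so. Klkb1, plasma prekallikrein, stood at 404 and 252 CPM against 104 and 156 CPM, 2.52 times lower in the ratio of means (log2 fold change -1.33, SE 0.35, edgeR adjusted p = 0.180). Without ethanol alone replicate 1 its log2 fold change was -0.98. Kng1, the kininogen that releases bradykinin and the most abundant of the 3, stood at 2664 and 1980.5 CPM against 1707 and 1952 CPM (-0.34, SE 0.27, and -0.14 without that library). F12, the protease that starts the system, stood at 597 and 503 CPM against 379 and 420 CPM (-0.46, SE 0.23). Kng1 has a near-identical copy, Kng2, whose reads the counting could split. Klkb1 shares 43.2% of its annotated exon bases with the overlapping gene model Gm45753, which is in the table at 0 to 0.0732 CPM. F11, 4.66 kb from Klkb1 on chromosome 8, is the gene related to it in sequence, and its groups overlapped.

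Proc, protein C, the vitamin K-dependent protease that shuts off clotting, stood at 614 and 389 CPM against 272 and 302 CPM (-0.80, SE 0.30, edgeR adjusted p = 0.248). With the length and GC trend removed its log2 fold change was -0.56 and its unadjusted p 0.0750, and without ethanol alone replicate 1 they were -0.47 and 0.0996. Pros1, protein S, its cofactor, stood at 75.2 and 69.5 CPM against 62.6 and 63.1 CPM (-0.20, SE 0.17). Plg, plasminogen, the precursor of plasmin, stood at 3247 and 3009 CPM against 2519 and 2729.7 CPM (-0.25, SE 0.23, edgeR adjusted p = 0.592). Its activators were at the low end of the data. Plat, tissue plasminogen activator, stood at 1.54, 0.297, 2.01 and 0.797 CPM, so the libraries numbered 1 were higher in each group. Plau, urokinase, stood at 1.68, 1.82, 2.93 and 1.06 CPM. The groups overlapped for both activators.

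In the classical pathway of complement, 5 of 6 members had both gavage libraries below both of ethanol alone, as 27.2% of all tested genes did, and the median log2 fold change was -0.68. C1qa, C1qb and C1qc encode the chains of C1q, which binds antibody, and lie within 136880129 to 136898803 on chromosome 4. C1qa stood at 70.9 and 55.5 CPM against 36.9 and 38.4 CPM (-0.75, SE 0.19, edgeR adjusted p = 0.181). C1qb stood at 79.8 and 55.4 CPM against 36.1 and 39.4 CPM (-0.84, SE 0.23, edgeR adjusted p = 0.192), and C1qc at 67.6 and 57.7 CPM against 36.3 and 42.9 CPM (-0.66, SE 0.19, edgeR adjusted p = 0.198). The 3 chains thus stood 1.58 to 1.79 times lower in the ratio of means and close to each other in every library. Their transcripts of 1040 to 1203 bases are among the shortest of the members. With the length and GC trend removed, the log2 fold changes were -0.40, -0.48 and -0.35.

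Cfp, properdin, which stabilises the alternative pathway convertase, stood at 45.8 and 34.9 CPM against 22.9 and 25.1 CPM (-0.75, SE 0.20, edgeR adjusted p = 0.182). Beside C1q and properdin, 11 of 12 Kupffer cell and macrophage markers also had both gavage libraries below both of ethanol alone (27.2% of all tested genes), and none of the 12 was at 0. They summed to 724 and 737 CPM against 450.2 and 524 CPM, with a median log2 fold change of -0.55. Clec4f, a lectin of Kupffer cells, stood at 170.4 and 159.8 CPM against 87.6 and 109.8 CPM, while Cd163, a scavenger receptor, overlapped at 31.3, 40.9, 24.3 and 56.4 CPM. In whole liver, fewer cells of a type and less RNA per cell cannot be told apart, and the part of the macrophage markers in these values was not tested. The complement receptors, which macrophages and neutrophils also carry, did not follow C1q. C3ar1 stood at 4.32, 7.4, 5.7 and 6.64 CPM, and C5ar1 at 1.43 and 1.68 CPM against 1.82 and 3.22 CPM. The 10 neutrophil markers summed to 4.98 and 4.53 CPM against 17.9 and 6.51 CPM, with Ly6g at 0 in 3 of the 4 libraries.

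**Figure D3:**
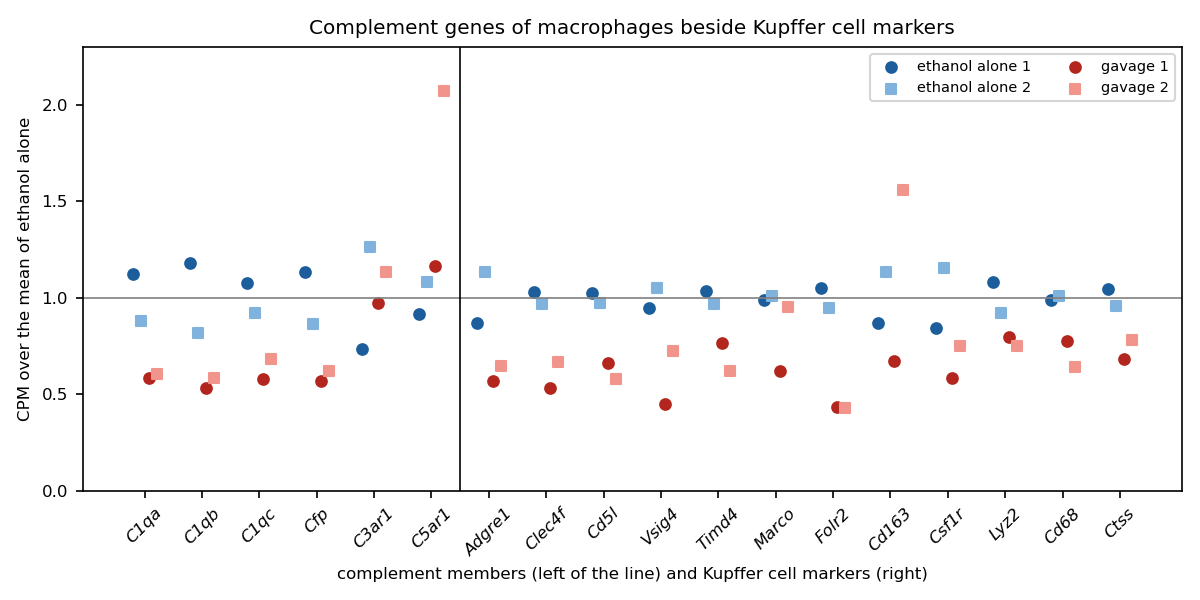
CPM divided by the mean of the ethanol alone libraries (y axis, linear from 0) for complement members made or carried by macrophages (left of the line) and 12 Kupffer cell and macrophage markers (right), in each library (blue for ethanol alone, red for gavage). Both gavage libraries lie below both of ethanol alone for C1qa, C1qb, C1qc, Cfp and 11 of the 12 markers, Cd163 being the exception, and not for C3ar1 or C5ar1.

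The proteases of the classical pathway lay lower as well. C1ra, the C1r protease, stood at 211 and 137 CPM against 99.3 and 114 CPM (-0.71, SE 0.28, edgeR adjusted p = 0.265), and C2, which forms the C3 convertase, at 39.9 and 33.7 CPM against 23.9 and 25.4 CPM (-0.58, SE 0.17, edgeR adjusted p = 0.199). Without ethanol alone replicate 1 the log2 fold change of C1ra was -0.39 and its unadjusted p in edgeR's test 0.108. C4b, the fourth component and the most abundant member of the pathway, stood at 1033 and 845 CPM against 1002 and 991 CPM, with overlap (0.09, SE 0.24). Its near-identical copy C4a was not analysed here. Cfb, factor B of the alternative pathway, stood at 6.04 and 5.85 CPM against 4.78 and 4.78 CPM. Cfb and C2 share 79.5% and 42.8% of their exon bases with the overlapping gene model Gm20547, which the table holds at 0 counts in all 4 libraries. The labels do not say how reads in shared exons were counted, so the levels of both are uncertain. C3, on which all routes converge and the most abundant complement member in CPM, stood at 10212 and 11722 CPM against 9626 and 14073 CPM (0.11, SE 0.30). The gavage libraries thus enclosed those of ethanol alone for C3, and its sign varied among the alternatives, from -0.19 to 0.36.

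In the lectin pathway, the recognition proteins and the proteases differed in their values. Mbl2, mannose-binding lectin C, stood at 694 and 457 CPM against 258 and 267 CPM, 2.19 times lower in the ratio of means (log2 fold change -1.13, SE 0.28, edgeR adjusted p = 0.171). Mbl1, mannose-binding lectin A, on another chromosome, stood at 262 and 163 CPM against 97.1 and 103 CPM (-1.09, SE 0.29, edgeR adjusted p = 0.183). For both, the gavage libraries lay close together and well under the lower diet-only library. The log2 fold changes were -0.83 and -0.90 with the length and GC trend removed, and -0.83 and -0.74 without ethanol alone replicate 1. DESeq2 with all libraries called both. The proteases that they activate overlapped between the groups. Masp1 stood at 46.6, 100.001, 93.2 and 129 CPM, with ethanol alone replicate 1 the lowest library by a factor of over 2, and Masp2 at 229 and 214 CPM against 179.9 and 221 CPM. Masp2 shares 54.9% of its exon bases with Tardbp on the opposite strand, so without a stated strand setting its count is uncertain.

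The terminal pathway builds the membrane pore from C5 to C9. Its 6 members had a median log2 fold change of -1.11, which was -0.022 without ethanol alone replicate 1. C6 stood at 143 CPM in that library and at 24.4, 25 and 26.1 CPM in the other 3. C8b, the beta chain of C8, stood at 361, 84.2, 86.6 and 122 CPM. C8a, the alpha chain, described here after its values were seen, stood at 546, 129, 240.3 and 326 CPM, so that its log2 fold change of -0.25 became 1.11 without ethanol alone replicate 1. The order of the libraries in these genes went with the sums of the male-type liver genes (6913, 82.6, 407 and 540.4 CPM), whose part in the values was not tested. C8a and C8b are neighbours on chromosome 4, 11.1 kb apart.

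C9, which polymerises to form the pore, and C8g, the lipocalin-like gamma chain of C8, had both gavage libraries below both of ethanol alone. C9 stood at 606 and 266 CPM against 143 and 169 CPM, 2.79 times lower in the ratio of means (log2 fold change -1.48, SE 0.43, edgeR adjusted p = 0.200). C8g stood at 451 and 291 CPM against 160.3 and 178 CPM (-1.13, SE 0.29, edgeR adjusted p = 0.175). Without ethanol alone replicate 1 the log2 fold changes were -0.80 for C9 and -0.81 for C8g. Hc, which encodes C5, the most abundant terminal component in CPM, stood at 970 and 1007 CPM against 873 and 1064 CPM (-0.03, SE 0.24), with overlap. The 3 chains of C8 thus had different values in the same libraries, with C8a at 240.3 and 326 CPM after gavage, above ethanol alone replicate 2, and C8g below it. A difference between the chains was not tested.

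**Figure D4:**
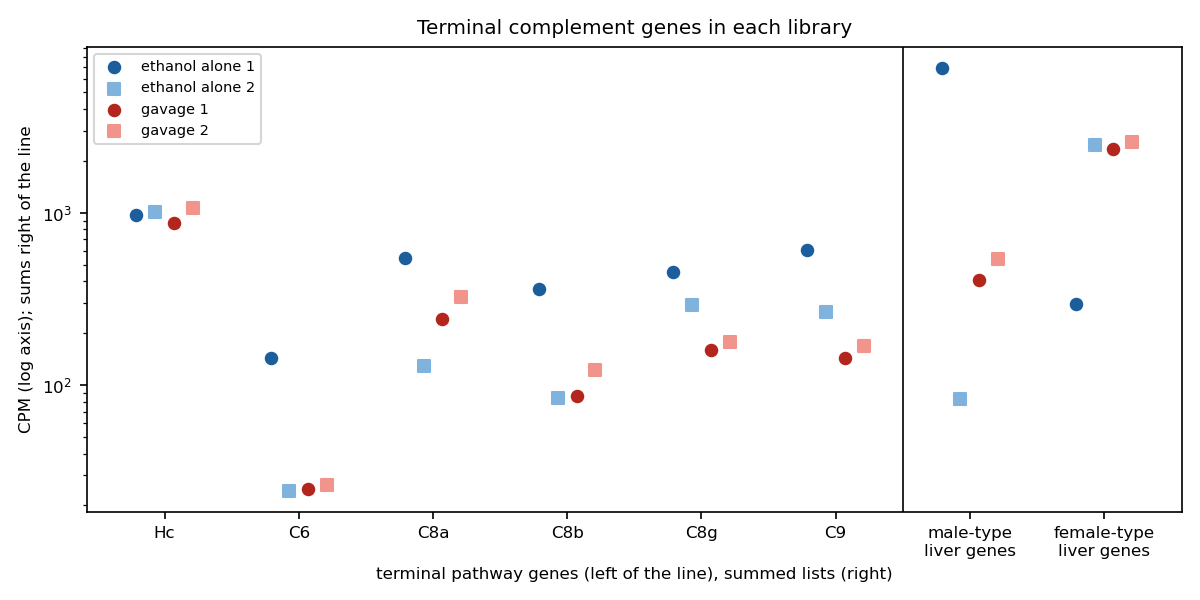
CPM on a log axis (y) of the 6 terminal pathway genes (left of the line) and summed CPM of 9 male-type and 10 female-type liver genes (right), in each library (blue for ethanol alone, red for gavage). C6, C8a, C8b, C8g and C9 are highest in ethanol alone replicate 1, the library with the highest male-type sum (6913 CPM), while Hc is at 873 to 1064 CPM in all 4.

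Of 5 complement regulators, C4bp, the C4b-binding protein that blocks the classical convertase, stood higher after gavage, at 616 and 481 CPM against 942 and 933 CPM (0.77, SE 0.24, edgeR adjusted p = 0.214). Its groups did not overlap, and DESeq2 called it. Vtn, vitronectin, which keeps the pore out of membranes and was the most abundant regulator, stood at 3252 and 2188 CPM against 1716 and 1843 CPM (-0.61, SE 0.29, edgeR adjusted p = 0.322), and its log2 fold change was -0.32 without ethanol alone replicate 1. Clu, clusterin, stood at 1435 and 1229 CPM against 802 and 1031 CPM (-0.54, SE 0.26), and Cfi, factor I, which cleaves C3b and C4b, at 847 and 716 CPM against 591 and 661 CPM (-0.32, SE 0.23). For these 3 both gavage libraries were the lower ones. Cd55, a membrane regulator 172 kb from C4bp on chromosome 1, stood at 21.6 and 22.3 CPM against 22.2 and 25.8 CPM. C4bp was thus the only regulator of the 5 with both gavage libraries above both of ethanol alone.

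Transcript length went with direction among the members. The 12 lower members with an unadjusted p under 0.05 had a median transcript of 1569 bases, against 2754 bases for the 30 members above that p and 3405 bases for all tested genes. Of the 12, 9 had transcripts of up to 2229 bases, in the shortest 2 of 8 length classes, as 16 of the 46 members did. Among the 4 higher members, Fgg, with 1741 bases, lay in a class with a median of -0.16, and Fga, with 2587 bases, in one with a median of -0.08. Fgb and C4bp, with 3810 and 3845 bases, lay in a class with a median of 0.06, on the same side as their own values. With the trend in length and GC content removed as an offset, Fga stood at 1.29, Fgg at 1.22, Fgb at 0.98 and C4bp at 0.71, each at an unadjusted p under 0.05. C1qa, C1qc and Proc had an unadjusted p over 0.05 in that fit (0.0814, 0.171 and 0.0750), C1qb was at 0.049995, just inside it, and 8 others stayed below that.

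**Figure D5:**
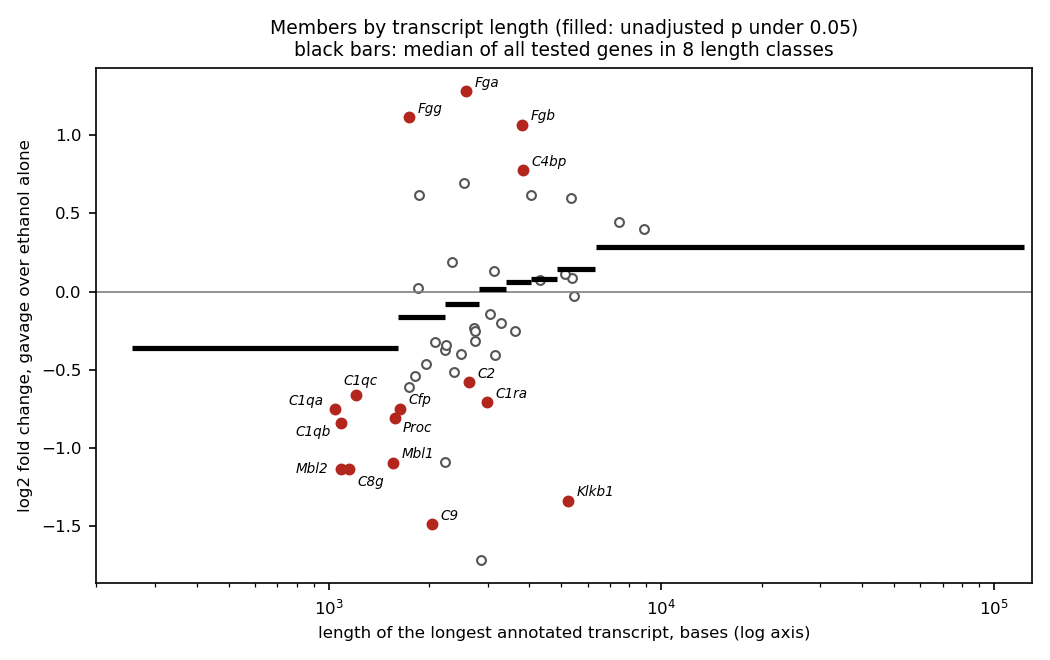
Log2 fold change (y axis) against the length of the longest annotated transcript (x axis, log scale) for the 46 members, with the 16 of unadjusted p under 0.05 filled and named, and the median of all tested genes in 8 length classes as black bars. The bars climb from -0.36 to 0.28, most of the lower members sit at the short end with Klkb1 as an exception, and the 3 fibrinogen chains lie far above the bars.

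Of 80 other genes of the same pathways, 71 were tested, with a median log2 fold change of -0.07. Under an unadjusted p of 0.05 there were 10 higher and 9 lower, where 8.91% and 9.85% of all tested genes were. The counts of each list below stand beside the same shares. In the list of clotting factors, their processing and transport 2 of 11 were higher and 1 was lower. Vkorc1l1, a paralogue of the vitamin K recycling enzyme, stood at 39.5 and 48.7 CPM against 101 and 86.3 CPM (1.09, SE 0.21, edgeR adjusted p = 0.134). Vkorc1, the main enzyme that recycles vitamin K for the clotting factors, stood in the other direction at 93.6 and 52.6 CPM against 34.3 and 36.3 CPM (-1.05, SE 0.31, edgeR adjusted p = 0.200). Fgl1, a fibrinogen-like liver protein chosen after its values were seen, stood at 511 and 309.5 CPM against 894 and 901 CPM (1.13, SE 0.31).

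Among the inhibitors of clotting and fibrinolysis, 2 of 13 tested genes were higher and 3 lower by the same unadjusted p. Tfpi2, a Kunitz-type inhibitor, stood at 86.5 and 61.9 CPM against 38.9 and 48.8 CPM (-0.76, SE 0.24). None of the 7 tested receptors of clotting and fibrinolysis had an unadjusted p under 0.05. Among complement enzymes and recognition proteins 0 of 8 were higher and 1 was lower. It was Fcna, a ficolin of the lectin pathway that macrophages make, at 82.2 and 76.8 CPM against 40.7 and 56.8 CPM (-0.71, SE 0.22). Cfd, factor D of the alternative pathway and an adipose product, stood at 23 CPM in each library numbered 1 and at 0 in those numbered 2. Among complement regulators and receptors 1 of 14 was higher and 4 were lower. Cd59a, which blocks the pore and has a paralogue in Cd59b, stood at 53.9 and 49.3 CPM against 24.7 and 29.1 CPM (-0.94, SE 0.17, edgeR adjusted p = 0.134). Itgam, a chain of complement receptor 3 on myeloid cells, stood at 1.28 and 1.29 CPM against 6.46 and 2.92 CPM (1.87, SE 0.46).

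The list of transcription factors and interleukin-6 signalling genes that act on liver plasma protein genes had 5 of 18 higher and 0 lower by that p, which 8.91% and 9.85% of all tested genes passed in each direction. Onecut1, the hepatocyte factor HNF6, stood at 15.9 and 24.1 CPM against 56.5 and 51.6 CPM (1.43, SE 0.25, edgeR adjusted p = 0.133). By overlap of the groups the same list had 7 genes with both gavage libraries above both of ethanol alone and 3 with both below. Of all tested genes, 27.5% and 27.2% did so. Stat3, through which interleukin-6 acts on fibrinogen genes, stood at 121 and 116 CPM against 269 and 250.5 CPM. Its feedback inhibitor Socs3 stood at 8.93 and 7 CPM against 32.2 and 18 CPM, and the receptor chain Il6st at 209.7 and 256 CPM against 359 and 404 CPM. Foxa3, a transcription factor of the list, stood at 62.8 and 35.2 CPM against 93 and 108 CPM (1.04, SE 0.32). Foxa2 stood at 25.3 and 29.2 CPM against 31.9 and 35.4 CPM (0.31, SE 0.17). The genes with both gavage libraries below were Il6ra, the interleukin-6 receptor, at 151 and 129 CPM against 111 and 119 CPM, and the hepatocyte factors Hnf4a (-0.27, SE 0.24) and Cebpa (-0.36, SE 0.23). Cebpb, an acute-phase factor, overlapped between the groups at 205, 78.1, 96.2 and 67.9 CPM (-0.79, SE 0.49), with ethanol alone replicate 1 the highest library. All of these but Onecut1 were named after their values were seen, and messenger RNA levels alone do not measure signalling.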

How the data were processed

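Bulk RNA-seq of 4 mouse liver libraries was analysed, 2 per group, grouped by their titles. The values the authors deposited are raw read counts for each gene symbol. Per the submitters' processing notes, the build was GRCm38 and the tools included STAR 2.6.0a, bcl2fastq 2.20.0.422, edgeR and HTSeq. Their roles, the annotation and the strand setting were not given in the sources used here. No row named anything but a gene.

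In R 4.3.3, edgeR 4.0.16 kept genes by filterByExpr (minimum count 10, minimum total 15) and scaled by TMM (factors 0.951, 0.998, 1.05 and 1.00). The 2-sided quasi-likelihood F-test compared gavage with ethanol alone, with Benjamini-Hochberg adjustment over 13309 genes and a threshold of 0.05. The SE is the absolute log2 fold change over the square root of F. A floor of 3 counts was 0.0955 to 0.110 CPM, counting error only. Alternatives used limma 3.58.1 and DESeq2 1.42.0. The loess offset in transcript length and GC content (span 0.5), its combinations, and DESeq2 without 1 library were chosen after seeing the data, as were the lists of muscle, male-type, female-type and Y-linked genes. Fits were tested on simulated data. Lengths and coordinates came from the GENCODE M21 annotation of GRCm38, which gave 98.5% of tested genes a length.

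The members and lists were chosen with earlier results of these data known. Values per library are given for members with an unadjusted p under 0.05, the highest CPM of their role, or 1 library apart by over 2 times; those of the other members, and of Cfd, Clec4f, Cd163, Ly6g, Plrg1 and Lrat, were added after they were seen. Of each list of other pathway genes, the gene with the smallest p each way is named if its unadjusted p was under 0.05, its mean at least 1 CPM and its groups did not overlap. 1 such gene is not reported here. Of the listed genes, C4a (complement) and Tf (hepatocyte marker) were not analysed here.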

Additional observations from a re-analysis of the deposited data

How the results depend on the processing

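Among the alternative values of the counts of calls, role medians and list medians, 311 stayed close to the main value and 46 moved. The 0 genes called by edgeR's quasi-likelihood test over the whole table (at an unadjusted p under 0.05, 1186 higher and 1311 lower) became 1181 with DESeq2, 549 with the likelihood-ratio test, 3 with the length and GC offset and 0 to 31 when 1 library was left out, the lone library then being assumed to vary like the other group. DESeq2 without ethanol alone replicate 1, chosen after seeing the data like each fit with the offset, called 377. Members called went from 0 to 13 with DESeq2 (4 higher, 9 lower) and 2 with the likelihood-ratio test (1 in each direction). DESeq2 without ethanol alone replicate 1 has 1 library in that group, so its members are described by log2 fold change here. Fga stood at 1.51, Fgb at 1.34, Fgg at 1.41 and C4bp at 0.95, while Mbl2 stood at -0.81 and C8g at -0.79. C8a stood at 1.12, against -0.25 in the main test. With all libraries, the main test put 4 members up and 12 down under an unadjusted p of 0.05. Without 1 library, the counts of members under that p ran from 1 to 6 higher and from 2 to 18 lower, and with the offset but without ethanol alone replicate 1 they were 0 and 1. The cause of these changes was not tested beyond the fewer libraries.

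The libraries share replicate numbers across the groups, but the labels tie them to no shared animal or day. Over the tested genes, the log2 CPM difference of replicate 1 from replicate 2 correlated at 0.587 between the 2 groups. That value rests on 2 pairs of libraries. With the replicate block 410 genes were called, 0 of them members, and 707 with the offset and the replicate block. In these blocked fits F7 stood at -0.0049 and C8a at 0.076 without the offset, and C4b at -0.063, C3 at -0.051 and C3ar1 at -0.0056 with it.

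The signs of 34 members held in all 17 alternatives, and 12 turned in some, none of them under an unadjusted p of 0.05 in the main test. F7 was -0.0050 with upper-quartile factors and -0.0081 with voom, C8a was 0.068 with voom, and Hc was 0.043 with library totals, which moved the median of all genes to 0.10. With the offset C4b was -0.069, C3 -0.0051 and C3ar1 -0.037, and without ethanol alone replicate 1 as well, F11 was 0.20, C3 -0.11, C8a 1.04, C8b 0.25 and C3ar1 -0.36. DESeq2 without that library gave F11 0.24, C6 0.056, C8a 1.12, C8b 0.30 and C3ar1 -0.27. Leaving out 1 library at a time gave -0.33 to 0.30 for F7, -1.004 to 1.11 for C8a, -0.19 to 0.11 for Hc, -0.86 to 0.23 for F11, -0.19 to 0.36 for C3, -2.54 to 0.040 for C6, -1.84 to 0.28 for C8b, -0.29 to 0.46 for C3ar1, -0.19 to 2.2 for Plat, -0.72 to 0.73 for Plau, -0.11 to 0.21 for C4b and -0.31 to 0.0012 for Masp2.

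Left-out libraries also spread the medians of log2 fold change, from -0.26 to 0.12 for clotting factors, -0.64 to -0.36 for the contact system, -0.73 to -0.32 for protein C and S, -1.66 to -0.022 for the terminal pathway, -0.49 to -0.22 for regulators, 0.081 to 0.39 for clotting factor processing, -0.33 to 0.016 for inhibitors and 0.023 to 0.26 for transcription factors and interleukin-6 signalling. With the offset the contact system was -0.31, the classical pathway -0.44 and the inhibitors -0.081, and with the replicate block added the last were -0.45 and -0.086. With the offset and without ethanol alone replicate 1, clotting factors were 0.014, the terminal pathway -0.094, processing 0.22 and inhibitors -0.067. DESeq2 without that library gave 0.13, -0.0056, 0.32 and 0.032 for these, and -0.30 for protein C and S. Processing was 0.018 with upper-quartile factors, 0.12 with library totals and -0.0065 with the stricter filter. Low counts limit Plat, Plau, F3, C3ar1, C5ar1 and Cfb, each at a mean under 7 CPM.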
